A study of Sus scrofa with 54 samples.

Results

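Levels of 62 inflammatory and macrophage genes were described in swine left ventricle, blood and skeletal muscle, out of 25114 genes counted. The genes were those named with an Ensembl identifier in the study's inflammatory or macrophage gene list, less 10 genes left out by name. Of the 62 genes, 45 were in the inflammatory list and 19 in the macrophage list, with CD14 and TLR4 in both. The identifier that the macrophage list names PRPS2 is named TLR7 in the reference table of gene names, so the gene called PRPS2 here stands for that identifier only.

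All 54 samples came from 5 pigs. The study's methods describe its follow-up animals as naïve adult female Yorkshire-Swedish farm swine, and no group carried a transgene or got an agent under study. Left ventricle was sampled with the sub-millimeter micro-biopsy device (micro-EMB, 20 baseline and 12 follow-up samples of 5 pigs) and with a conventional bioptome (conventional EMB, 6 baseline and 4 follow-up samples of pigs 4491 and 4494). Blood and skeletal muscle (6 samples each) were taken at baseline from pigs 4491 and 4494 only. Follow-up biopsies came from hearts that had already been biopsied at baseline, and pig 4493 gave no follow-up sample.

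Inflammation in the heart is carried by circulating leukocytes and by cells that stay in the tissue. Endothelial cells present adhesion molecules that catch leukocytes, fibroblasts and endothelial cells release chemokines that draw monocytes, and resident macrophages clear dying cells and handle lipid. Monocytes, lymphocytes and granulocytes carry the matching receptors and reach the biopsy with the blood it contains. A bulk library holds all of these cells together, so fewer cells of a type and less RNA per cell cannot be told apart.

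After 3 micro-EMB libraries with under 5000 genes at 1 CPM (counts scaled to the library's size) were left out, 51 libraries of 74767 to 4649613 counted reads remained, 11 of them under 1000000 reads. The 62 genes took a median of 0.249% of the reads in blood, 0.187% in skeletal muscle, 0.258% in micro-EMB and 0.310% in conventional EMB. Clustered on the study's blood genes other than the 62, 7 libraries fell on the branch of the blood samples: 6 from heart, namely samples 4, 19 and 44 of micro-EMB with samples 3, 38 and 55 of conventional EMB, and 1 from skeletal muscle, sample 57. Tissue labels were checked on marker lists. All 6 cardiomyocyte markers found were higher in heart than in blood, whereas the 6 heart libraries on the blood branch had a summed cardiomyocyte level of 96.8 to 16326 CPM, against a median of 88504 CPM in the other 33. Where a tissue call was lost or gained without these libraries, this is stated.

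**Figure D1:**
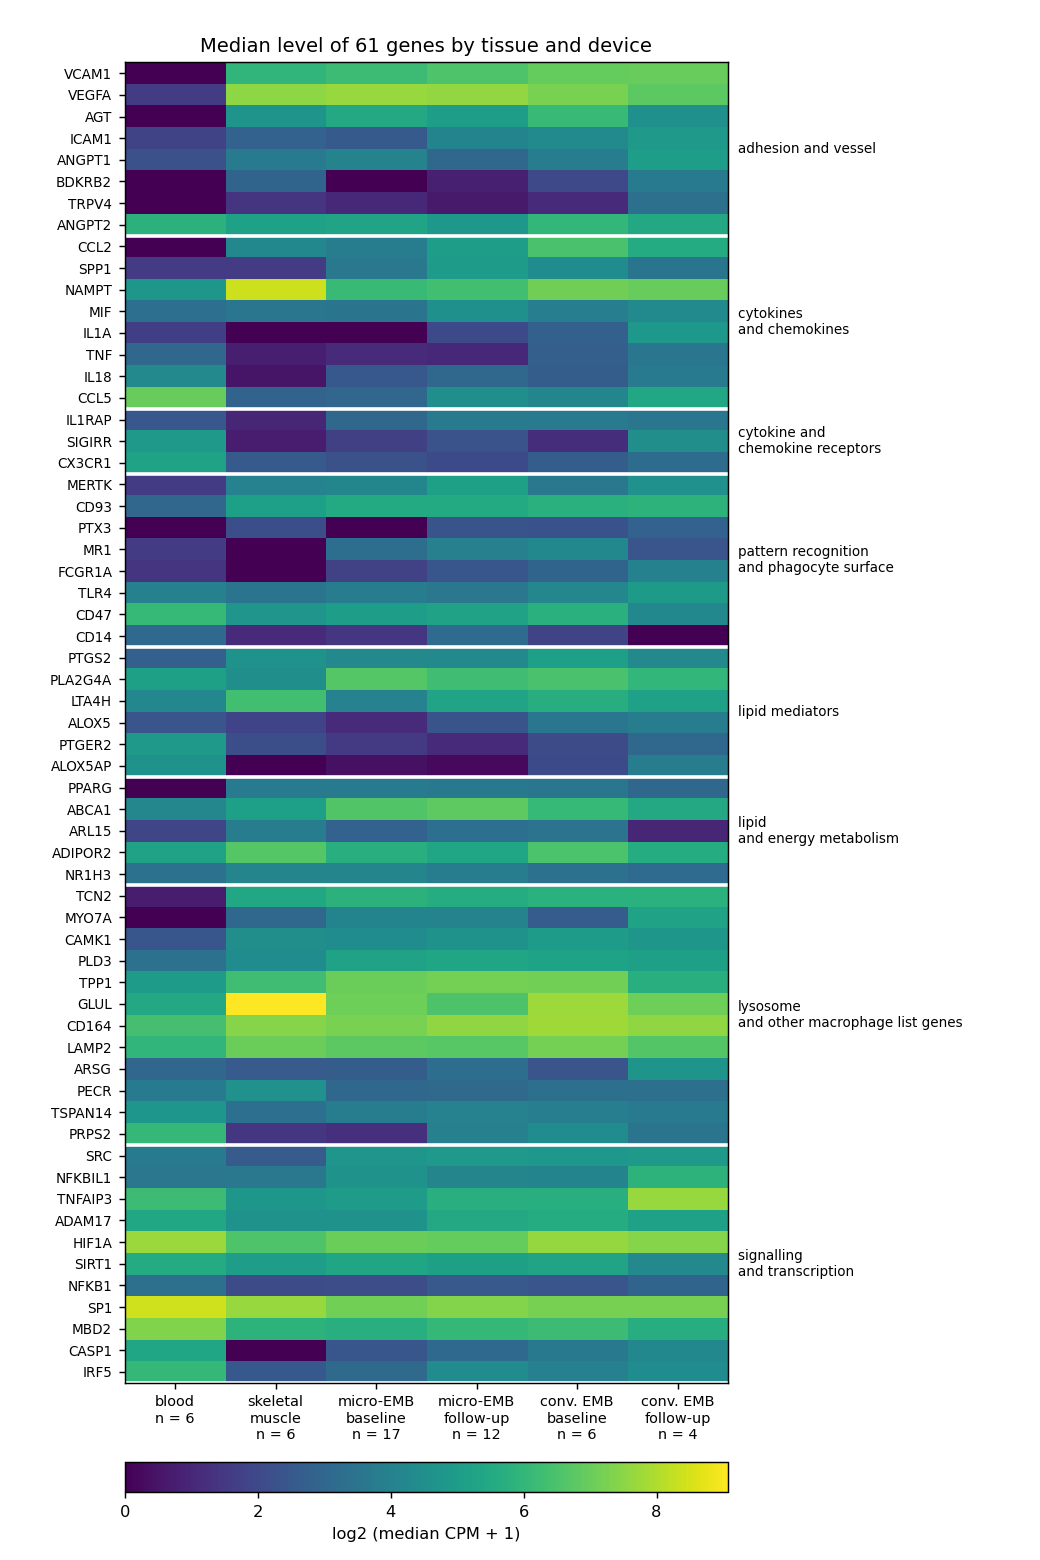
Median level of 61 of the genes (rows, grouped by role) in blood, skeletal muscle, and micro-EMB and conventional EMB at baseline and follow-up (columns, with the number of libraries), as log2 of the median CPM plus 1. VCAM1, AGT, CCL2 and PPARG had a median of 0 in blood and were read in every other column, and SP1 and MBD2 were highest in blood.

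Tissues were compared in the baseline samples of pigs 4491 and 4494 (12 heart, 6 blood, 6 skeletal muscle), with pig as a covariate. A gene was called when its edgeR adjusted p was under 0.05 and its log2 fold change was past 1. Libraries of a pig are not separate animals, so the p-values measure the spread between samples of 2 pigs. Of the 60 genes tested, 21 were higher in heart than in blood (35.0%, where 23.9% of all 11653 genes tested were called in that direction) and 5 were higher in blood (8.33%, where 8.36% of all genes were called). The median log2 fold change of heart over blood was 0.64 for the 60 genes and 0.19 for all genes. Another scaling (DESeq2 size factors) moved the latter to 0.36. Such a change of scaling moves the 60 genes as well, so 0.36 is not to be set against 0.64. BDKRB2 and TRPV4 had too few reads to be tested.

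**Figure D2:**
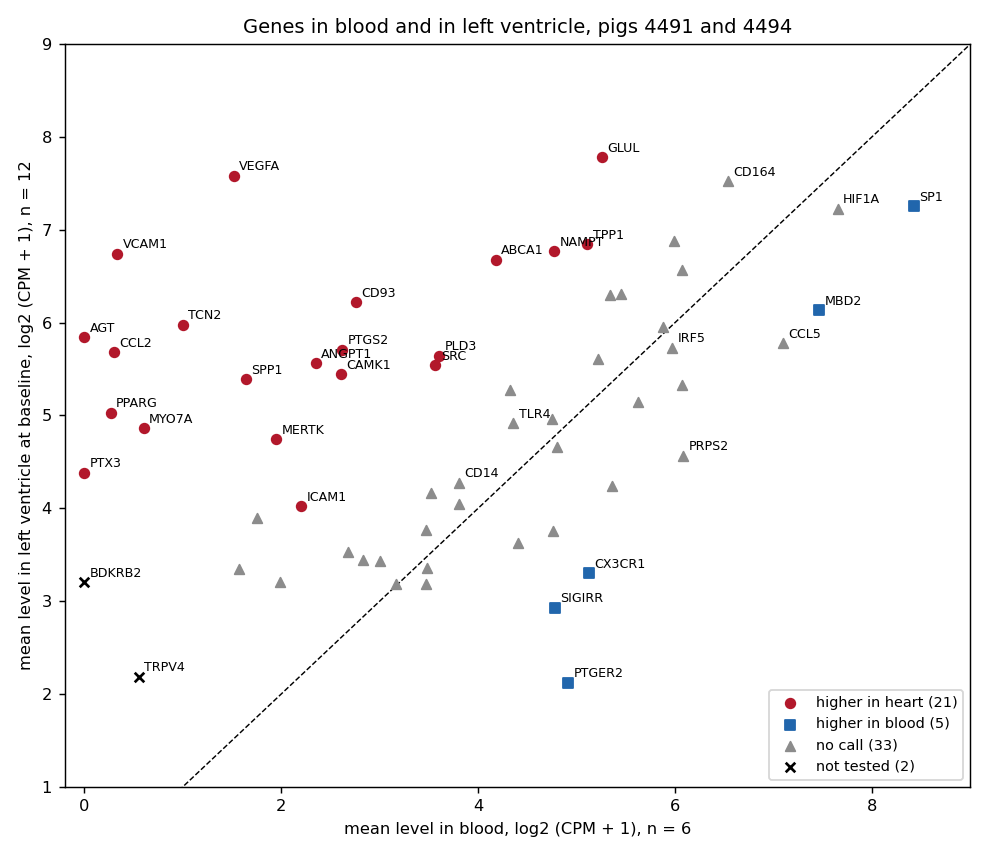
Mean level in the 6 blood libraries (x axis) against the mean level in the 12 baseline left ventricle libraries of the same pigs (y axis), both as log2 of CPM plus 1, with the line of equal levels dashed. The 21 genes called higher in heart lie above the line and the 5 called higher in blood (SP1, MBD2, CX3CR1, SIGIRR, PTGER2) below it.

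Together the 3 comparisons of tissues sorted the genes into patterns. Heart and skeletal muscle were both called above blood for 14 genes, heart above both blood and muscle for 3 (SPP1, ABCA1, SRC), and heart above blood only for 4. Blood was called above both tissues for 4 genes (SP1, MBD2, CX3CR1, SIGIRR), above heart only for PTGER2 and above muscle only for 7. A further 24 genes had no call in any comparison. The patterns were not counted over all genes, so the split is not shown to be particular to these genes. Of all genes tested, 23.9% were called higher in heart than in blood and 23.6% higher in muscle than in blood.

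Among the 8 genes of adhesion and vessel, 5 of 6 tested were higher in heart than in blood and none was lower. Angiotensinogen (AGT), the precursor of the angiotensins, had no read in any of the 6 blood libraries. It lay at 10.9 to 39.7 CPM (median 24.7) in skeletal muscle and at 1.99 to 135 CPM (median 42.2) in heart. Heart and blood did not overlap, and the mean in heart was at least 311-fold higher than the floor of 3 reads over the blood group.

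VCAM1, the endothelial adhesion molecule that holds leukocytes, was at 0 in 4 blood libraries and at most 1.31 CPM in the other 2. In skeletal muscle it ran from 31.2 to 106 CPM (median 61.7). In heart it ran from 0 to 284 CPM (median 121), and the 2 libraries at 0 were samples 19 and 38, which cluster with blood. Without the libraries on the blood branch the lowest of 9 heart values was 69.2 CPM, and heart and blood no longer overlapped. The log2 fold change of heart over blood was 8.36 (SE 1.17, edgeR adjusted p = 3.29e-06).

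VEGFA, which drives vessel growth, was at 0.274 to 2.91 CPM in blood, 48.9 to 249 CPM in skeletal muscle and 39.8 to 384 CPM in heart. Blood lay below every heart and muscle library, with a log2 fold change of heart over blood of 6.59 (SE 0.62, edgeR adjusted p = 2.44e-08) and of blood over muscle of -6.34 (SE 0.63, edgeR adjusted p = 4.17e-08). ICAM1, a second leukocyte adhesion molecule, and ANGPT1, a ligand of the endothelial receptor TEK, were also called higher in heart (log2 1.96 and 3.46). Neither call was kept without the libraries on the blood branch (log2 1.63 and 0.62, edgeR adjusted p = 0.066 and 0.70). ANGPT2, the other ligand of TEK, had medians of 55.8 CPM in blood and 54.6 CPM in heart, and its groups overlapped. BDKRB2, the bradykinin B2 receptor, had no read in blood and its mean in heart was at least 45.4-fold above the floor, or 22.7-fold without the libraries on the blood branch, of which sample 19 was highest at 57.6 CPM. In 4 of 12 heart libraries it was also at 0.

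Of the 8 cytokines and chemokines, CCL2, SPP1 and NAMPT were higher in heart than in blood and none was lower. CCL2, which draws monocytes, was at 0 in 5 blood libraries and reached 1.37 CPM in the last. It ran from 4.13 to 80.6 CPM (median 18.0) in skeletal muscle and from 5.61 to 144 CPM (median 39.1) in heart, above every blood library. Its log2 fold change of heart over blood was 7.16 (SE 1.11, edgeR adjusted p = 1.16e-05).

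SPP1, osteopontin, was the gene of the 62 with the largest called difference between heart and skeletal muscle. It was at 0.873 to 3.64 CPM in blood, 0.863 to 9.77 CPM in muscle and 6.18 to 139 CPM (median 25.2) in heart. Every heart library was above every blood library, and heart and muscle overlapped only through the highest muscle library, sample 57, which clusters with blood. The log2 fold change of heart over muscle was 3.98 (SE 0.81, edgeR adjusted p = 0.00176).

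NAMPT, an enzyme of NAD synthesis that is also secreted, was the only gene of the 60 called lower in heart than in muscle. It was at 0 to 43.6 CPM (median 27.2) in blood, 31.8 to 177 CPM (median 124) in heart and 244 to 398 CPM (median 334) in muscle, where every library exceeded every heart library. The log2 fold change of heart over muscle was -1.49 (SE 0.45, edgeR adjusted p = 0.0298).

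IL18, the inflammasome cytokine, and CCL5, a T cell and platelet chemokine, had their highest medians in blood. IL18 was at 13.1 to 29.6 CPM in blood against 0 to 7.33 CPM in muscle, without overlap, and blood exceeded muscle by a log2 fold change of 4.26 (SE 1.19, edgeR adjusted p = 0.00583). CCL5 was at 62.2 to 247 CPM in blood and 0.51 to 218 CPM in heart. It was called lower in heart only without the libraries on the blood branch (log2 -3.03, edgeR adjusted p = 0.000198, against -1.39 and 0.234 with them). TNF, MIF and IL1A had no call, with heart medians of 6.98, 18.7 and 3.81 CPM.

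The 4 cytokine and chemokine receptors had a median log2 fold change of heart over blood of -1.09, and CX3CR1 and SIGIRR were called higher in blood. CX3CR1, the fractalkine receptor of monocytes and NK cells, ran from 17.6 to 47.9 CPM (median 36.8) in blood, 0 to 7.81 CPM in muscle and 0 to 49.9 CPM (median 4.45) in heart. The value of 49.9 CPM came from sample 19, and the 9 heart libraries off the blood branch reached only 16.4 CPM, below every blood library. The log2 fold change of heart over blood was -2.08 (SE 0.81, edgeR adjusted p = 0.0481).

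SIGIRR, a receptor that restrains interleukin-1 and Toll-like signalling, was at 14.4 to 32.8 CPM in blood, 0 to 4.89 CPM in muscle and 0 to 26.9 CPM (median 3.10) in heart. Its log2 fold change was -2.18 (SE 0.84, edgeR adjusted p = 0.0458) for heart over blood and 4.66 (SE 1.19, edgeR adjusted p = 0.00283) for blood over muscle. IL1RAP, the shared accessory chain of interleukin-1 receptors, had no call.

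Of the 8 pattern recognition and phagocyte surface genes, PTX3, CD93 and MERTK were higher in heart than in blood and none was lower. CD93, a surface glycoprotein of endothelium and myeloid cells, had the lowest adjusted p of the group. It ran from 1.79 to 8.50 CPM in blood, 25.7 to 46.4 CPM in muscle and 15.4 to 340 CPM (median 53.6) in heart, without overlap between blood and either tissue. The log2 fold change of heart over blood was 3.52 (SE 0.60, edgeR adjusted p = 3.97e-05).

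PTX3, a secreted pattern receptor, had no read in blood and a mean in heart at least 110.0-fold above the floor, but 5 of 12 heart libraries were also at 0 and the highest was 90.3 CPM. MERTK, with which macrophages take up dying cells, was at 0.548 to 8.29 CPM in blood, 5.85 to 46.4 CPM in muscle and 0 to 77.5 CPM (median 19.8) in heart (log2 3.02, SE 0.78, edgeR adjusted p = 0.00330). The receptors of bacterial lipopolysaccharide, CD14 and TLR4, had no call. Their medians were 7.67 and 14.9 CPM in blood and 3.97 and 17.7 CPM in heart. CD47, the surface signal against phagocytosis, was called higher in blood than in muscle only (log2 1.48, SE 0.55, edgeR adjusted p = 0.0329).

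**Figure D3:**
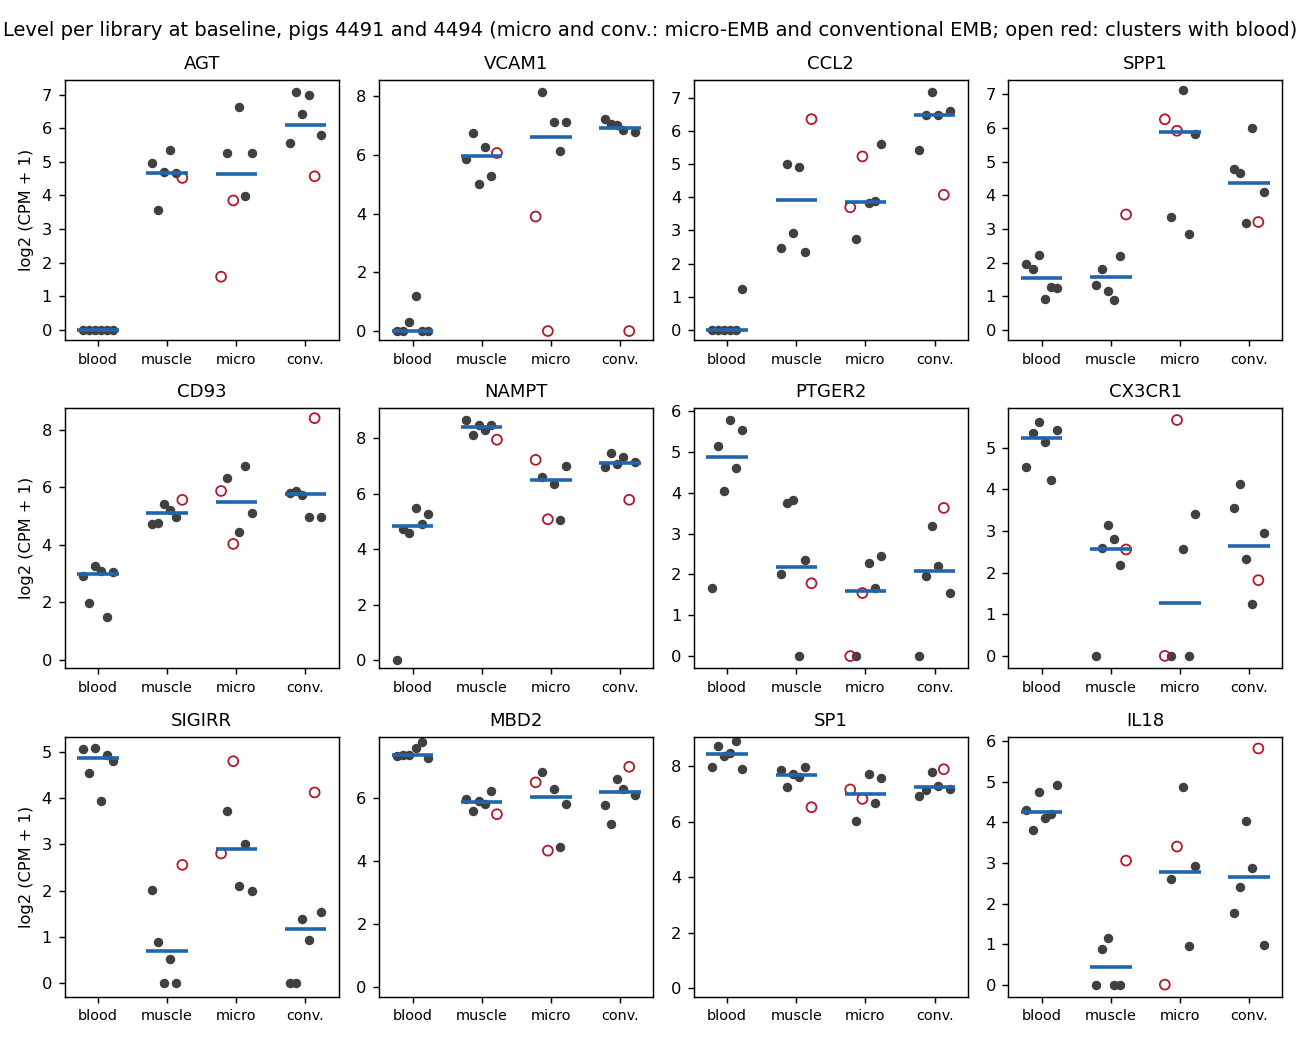
Level in each baseline library of pigs 4491 and 4494, as log2 of CPM plus 1, for 12 genes, with blue lines at the group medians and open red circles for libraries that cluster with blood. AGT was 0 in all 6 blood libraries, and MBD2 was higher in every blood library than in any heart library.

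Of the 6 genes of lipid mediators, 1 was higher in heart than in blood, 1 was lower and 4 had no call. PTGS2, the inducible cyclooxygenase, was higher in heart (5.09 to 125 CPM, median 33.7) than in blood (0 to 9.33 CPM, median 5.83), with a log2 fold change of 3.39 (SE 0.82, edgeR adjusted p = 0.00184). PTGER2, a receptor of prostaglandin E2, was lower in heart (0 to 11.4 CPM, median 2.53) than in blood (2.17 to 54.1 CPM, median 29.0), with a log2 fold change of -3.19 (SE 0.73, edgeR adjusted p = 0.00111). PLA2G4A, the phospholipase that releases arachidonic acid, was called in heart over muscle only. It was at 7.66 to 112 CPM (median 80.8) in heart and 5.41 to 29.3 CPM in muscle (log2 2.06, SE 0.49, edgeR adjusted p = 0.00659).

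Genes of the leukotriene branch differed in their pattern. ALOX5AP, which hands arachidonic acid to 5-lipoxygenase, was at 11.8 to 55.9 CPM in blood, at 0 in 4 of 6 muscle libraries and at a median of 3.46 CPM in heart. Blood exceeded muscle without overlap (log2 4.25, SE 1.32, edgeR adjusted p = 0.0119). LTA4H, which makes leukotriene B4, was higher in muscle than in blood (log2 of blood over muscle -1.96, SE 0.68, edgeR adjusted p = 0.0233). ALOX5 itself had no call, with medians of 4.20 CPM in blood and 7.39 CPM in heart.

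In lipid and energy metabolism, PPARG and ABCA1 were higher in heart than in blood. PPARG, the nuclear receptor of fat storage and of macrophage lipid handling, was at 0 in 5 of 6 blood libraries, 1.73 to 37.7 CPM in muscle and 0 to 165 CPM (median 18.0) in heart (log2 6.70, SE 1.17, edgeR adjusted p = 5.63e-05). The heart library at 0 was on the blood branch, and without that branch the lowest heart value was 7.74 CPM. ABCA1, which exports cholesterol from cells, was also called in heart over muscle. Its medians were 17.3 CPM in blood, 33.9 CPM in muscle and 83.2 CPM in heart (log2 of heart over muscle 1.68, SE 0.47, edgeR adjusted p = 0.0199). NR1H3, the liver X receptor alpha that induces ABCA1, had no call and medians of 9.57, 16.7 and 14.7 CPM in blood, muscle and heart.

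Of the 12 lysosome and other macrophage list genes, 6 were higher in heart than in blood and none was lower. TCN2, the carrier of vitamin B12, was at 0 to 3.49 CPM in blood, 22.0 to 47.5 CPM in muscle and 3.79 to 140 CPM (median 67.9) in heart, with no overlap of blood with the others (log2 of heart over blood 5.75, SE 0.77, edgeR adjusted p = 1.79e-06). MYO7A, an unconventional myosin, was at 0 in 4 of 6 blood libraries and at 2.73 to 118 CPM (median 11.2) in heart (log2 5.39, SE 1.21, edgeR adjusted p = 0.000908). GLUL, glutamine synthetase, had its highest median in muscle (538 CPM), with 209 CPM in heart and 43.1 CPM in blood. TPP1 and PLD3, a peptidase and a nuclease of the lysosome, and the kinase CAMK1 were the other 3, with log2 fold changes of 1.72, 2.06 and 2.95. PRPS2 was at 46.8 to 86.0 CPM in blood, 0 to 30.1 CPM in muscle and 0 to 47.0 CPM in heart, and was called in blood over muscle only.

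Of the 11 signalling and transcription genes, SP1 and MBD2 were higher in blood than in heart, SRC was higher in heart and 8 had no call. Between blood and muscle, 5 were higher in blood and none was lower, where 13.9% and 23.6% of all genes were called. SP1, a general transcription factor, ran from 233 to 479 CPM in blood and 63.8 to 235 CPM in heart, where only the highest library, sample 38, reached the lowest blood level. The log2 fold change of heart over blood was -1.30 (SE 0.26, edgeR adjusted p = 0.000284). MBD2, which binds methylated DNA, was at 154 to 219 CPM in blood and 19.2 to 126 CPM in heart, without overlap (log2 -1.41, SE 0.31, edgeR adjusted p = 0.000772).

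SRC, the tyrosine kinase, was at 0 to 21.1 CPM in blood, 0 to 14.7 CPM in muscle and 8.19 to 194 CPM (median 33.4) in heart. It was called in heart over muscle (log2 3.19, SE 0.87, edgeR adjusted p = 0.0169) and over blood (log2 1.98, edgeR adjusted p = 0.0454). The call over blood was not kept without the libraries on the blood branch (log2 1.38, edgeR adjusted p = 0.105). CASP1, the protease that matures IL18, was at 19.5 to 60.2 CPM in blood and at 0 in 4 of 6 muscle libraries (log2 of blood over muscle 3.44, SE 1.16, edgeR adjusted p = 0.0206). IRF5 and HIF1A were likewise called in blood over muscle only (log2 3.20 and 1.12). Without the libraries on the blood branch, HIF1A and SP1 no longer passed the fold threshold in blood over muscle (log2 0.97 and 0.79), and TNFAIP3 did (log2 1.33, edgeR adjusted p = 0.00713). NFKB1, NFKBIL1, ADAM17 and SIRT1 had no call with all libraries, nor did TNFAIP3.

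Between heart and skeletal muscle, 5 of 60 genes were higher in heart (8.33%, where 6.55% of all genes were called) and NAMPT was higher in muscle (1.67%, where 4.02% were called). Leaving out the libraries on the blood branch raised these counts to 13 and 2: CASP1, CD14, FCGR1A, IL18, IL1A, IRF5, MR1 and VCAM1 were then called higher in heart and GLUL higher in muscle. Over all genes the counts rose too, from 763 and 468 of 11653 to 1024 and 738 of 11459. Between blood and muscle, 12 genes were higher in blood (20.0%, where 13.9% of all genes were called) and 15 higher in muscle (25.0%, where 23.6% were called). With DESeq2 size factors the split was 7 and 17 (1260 and 3001 of all 11653 genes). Without the libraries on the blood branch it was 15 and 18: CCL5, CD14, IL1A, TNF and TNFAIP3 were then also called higher in blood and ADIPOR2, LAMP2 and TPP1 higher in muscle, while the calls of HIF1A and SP1 were lost. All genes split 1800 and 3104 of 11459 in that setting, against 1620 and 2752 of 11653. Between heart and blood, leaving out these libraries gave 22 genes higher in heart and 9 higher in blood, of which 18 and 5 were shared with the calls made on all libraries. The genes gained were ADIPOR2, CD164, LAMP2 and MR1 in heart and ALOX5AP, CASP1, CCL5 and IRF5 in blood. Of all 11459 genes tested, 3146 were then higher in heart and 1549 higher in blood, against 2782 and 974 of 11653.

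Other genes of the same pathways were counted in fixed lists that hold none of the 62. Of 28 tested genes of Toll-like receptor and NF-kB signalling, none was higher in heart than in blood and 3 were higher in blood, TAB2 (log2 -1.13, SE 0.33) and IRAK4 (log2 -1.24, SE 0.45) having the lowest adjusted p. Of 10 tested cytokine and inflammasome genes, 2 were higher in heart, among them the neutrophil chemokine CXCL2 (log2 10.34, SE 1.73), and 1, IL6R (log2 -1.33, SE 0.34), was higher in blood. Of 10 tested genes of eicosanoid synthesis and reception, 3 were higher in heart, among them PTGIS, prostacyclin synthase (log2 8.23, SE 0.94), and PTGER3 (log2 6.82, SE 1.28), and 1 was higher in blood. Over all genes, 23.9% were called higher in heart than in blood and 8.36% higher in blood. The median log2 fold changes of these lists were 0.07, -0.26 and 1.87, against 0.19 for all genes.

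Of 12 tested macrophage markers that are not among the 62, 7 were higher in heart than in blood and 0 higher in blood. The shares over all genes were 23.9% and 8.36%. The median log2 fold change of these markers was 3.23. C1QA, FOLR2, LYVE1, MARCO, MSR1 and TIMD4 had a median of 0 in blood, and MRC1, the mannose receptor, had medians of 0.436 CPM in blood and 65.4 CPM in heart. In heart the medians of C1QA, FOLR2, LYVE1 and MSR1 were 16.1, 4.33, 17.1 and 13.2 CPM. MARCO and TIMD4 were low in heart too (medians of 0.369 and 2.64 CPM). Over all heart libraries off the blood branch their medians were 0 and 0.745 CPM. FCER1G, TYROBP, CD86 and ITGAM, which other myeloid cells also express, had higher medians in blood (76.6, 48.2, 46.4 and 36.3 CPM) than in heart (39.0, 20.6, 18.3 and 22.4 CPM). The summed level of the 14 macrophage markers found was 184 to 375 CPM in blood, 63.7 to 564 CPM in muscle and 166 to 3149 CPM in heart. All 5 endothelial, 6 fibroblast and 6 cardiomyocyte markers tested were higher in heart than in blood as well. The part of each of these cell types in the levels of the 62 genes was not tested.

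How much of each gene's heart level blood in the biopsy could carry was described with a blood index. The index summed 52 genes of the study's blood list, none among the 62, whose median reached 50 CPM in blood while staying below 1 CPM in muscle. It was read as a percent of its mean in blood and multiplied by the gene's mean in blood. Its median was 1.61% in 29 micro-EMB libraries, 4.14% in 10 conventional EMB libraries and 0.246% in muscle. The muscle value follows from choosing genes that were low in these muscle libraries, so it is not a result and not to be set against heart. Over all 39 heart libraries the index accounted for a median of 2.54% of a gene's mean level, for under 10% in 54 of the 62 genes, and for over 50% in none.

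The genes with the largest share from blood were PTGER2 (33.4%), CX3CR1 (23.5%), PRPS2 (22.6%), CCL5 (19.7%), SIGIRR (15.8%), ALOX5AP (14.3%), CASP1 (13.6%) and MBD2 (11.5%). PTGER2, CX3CR1, PRPS2, CCL5 and MBD2 are also the 5 genes of the 62 that the study's blood list holds. The study drew that list from its own data as genes upregulated in blood, so this overlap is not separate evidence. At the other end, the share was under 0.1% for AGT, BDKRB2, PTX3, VCAM1, CCL2, VEGFA, PPARG and TCN2. SP1 and HIF1A, which were both abundant in blood, had shares of 9.42% and 6.44%. By role the median share was lowest for adhesion and vessel (0.118%) and highest for cytokine and chemokine receptors (11.0%), a group of 4 genes. Each share is the same mean index times the gene's mean in blood over its mean in heart. The order of genes and roles by share therefore restates the ratio of blood to heart and is no further result. An index of 6 red cell markers had a lower mean, which lowers the share of every gene read in blood by the same factor. The median share was then 0.422% and the highest 5.54%. The estimate takes blood in a biopsy to have the make-up of the drawn blood, which was not tested.

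**Figure D4:**
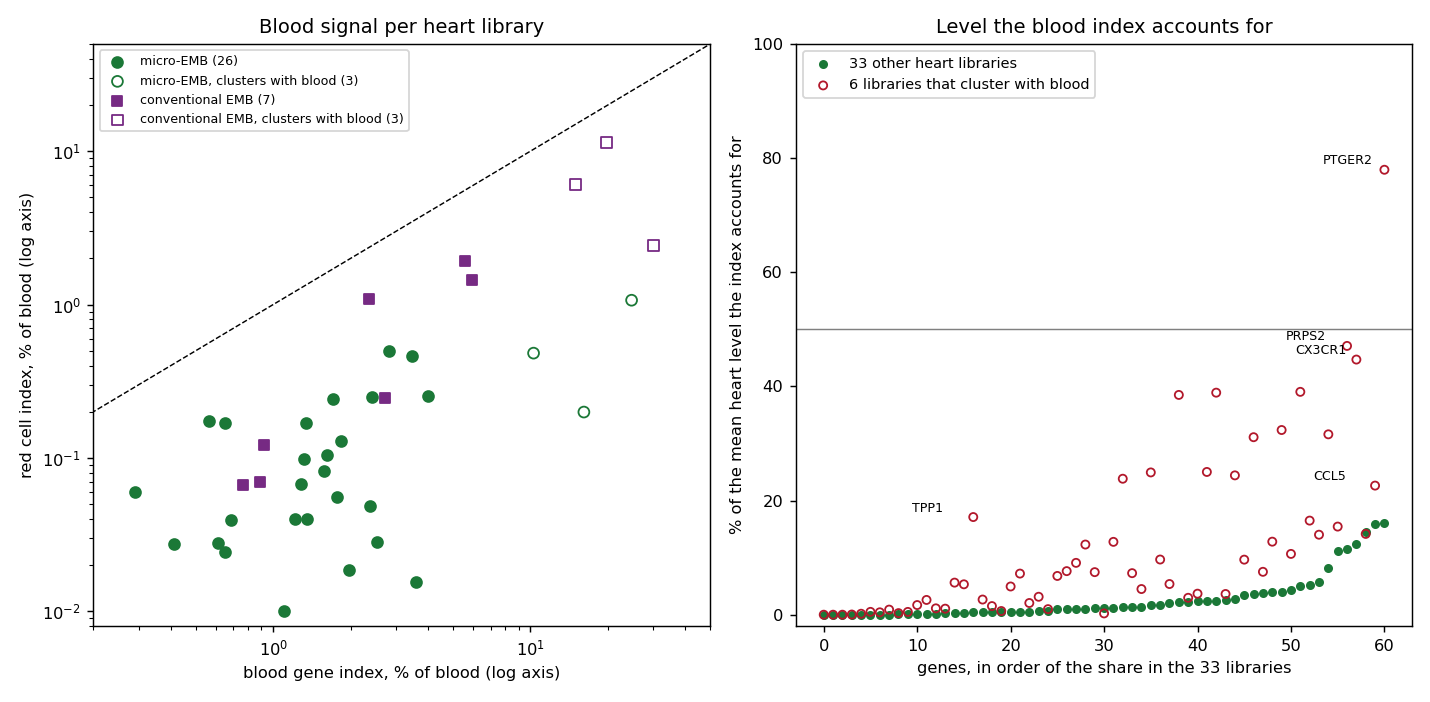
Left, blood gene index against red cell index of each heart library, both as a percent of the mean in blood on log axes (values under 0.01% drawn at 0.01%), with the line of equal values dashed. Right, the percent of the mean heart level of 61 genes that the blood gene index accounts for, in the 33 other heart libraries (filled) and in the 6 that cluster with blood (open), where only PTGER2 was over 50%.

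The 2 indices parted in the 6 heart libraries on the blood branch. Their blood gene index was 10.3 to 30.1% and their red cell index 0.199 to 11.3%. The genes of the blood gene index are part of the list these libraries were clustered on. A high blood gene index in them is therefore not a separate result. In sample 44 the values were 16.1% and 0.199%, and in sample 38 they were 30.1% and 2.42%. The index accounted for a median of 7.24% of a gene's mean level in these 6 libraries, with 78.0% for PTGER2, 47.1% for PRPS2 and 44.7% for CX3CR1. In the other 33 heart libraries the median was 1.16% and the highest value 16.1%, again for PTGER2.

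Of the 62 genes, 44 (71.0%) had a higher mean in the 6 libraries than in the other 33, against 54.5% of the 16012 genes with a mean of at least 1 CPM in heart. A ratio over 5 was found for 11 of the 62 (17.7%), a share near that of all these genes (18.2%). The genes named next were chosen after their values were seen, and no test was made. IL1A, an alarm cytokine released by injured and myeloid cells, was at 9.96, 0 and 1305 CPM in micro-EMB samples 4, 19 and 44 and at 43.5, 56.3 and 111 CPM in conventional EMB samples 3, 38 and 55. In the other 33 libraries it ran from 0 to 51.9 CPM (median 2.36), and its mean was 51.8 times as high in the 6, or 8.99 times without sample 44. The blood index accounted for 0.225% of the IL1A level in the 6 libraries.

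TLR4 (15.4 to 305 CPM, against a median of 12.5 CPM in the 33) and TNFAIP3, a brake on NF-kB signalling (17.3 to 895 CPM, against 40.6 CPM), were 7.48 and 6.46 times as high in the mean (4.59 and 4.43 times without sample 44), with 3.63% and 3.68% accounted for. ALOX5AP, ANGPT1, ALOX5, CASP1, CCL5, BDKRB2, FCGR1A and CD14 were the other 8 genes over 5 times as high. Without the highest of the 6 libraries for each gene, only ALOX5AP (8.31), CCL5 (5.96) and CASP1 (5.63) of these 8 kept a ratio over 5. The ratio then dropped to 4.82 for ANGPT1 (sample 4 left out), 4.34 for BDKRB2 (sample 19), 2.88 for CD14 (sample 38), and 2.73 for ALOX5 and 2.04 for FCGR1A (sample 44). AGT, TPP1, VEGFA, TCN2 and PPARG had the lowest ratios of the mean in the 6 to that in the 33, from 0.190 for AGT to 0.486 for PPARG. AGT was at 1.66 to 26.4 CPM in the 6, against 0 to 237 CPM (median 40.7) in the 33.

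Marker lists moved with these libraries. The platelet marker found, TUBB1, had a median of 1589 CPM in the 6 libraries, 6.07 CPM in the 33 and 68.5 CPM in blood. The summed macrophage markers were at 541 to 2512 CPM in the 6 (median 1311) and 68.7 to 3149 CPM in the 33 (median 318). The list did not move as a whole. FCER1G had medians of 869 CPM in the 6 and 22.6 CPM in the 33. TYROBP (70.6 and 7.74 CPM), CD86 (67.8 and 12.2 CPM) and ITGAM (57.9 and 15.8 CPM) also had higher medians in the 6. So had CD68, CSF1R, MARCO and TIMD4, while MSR1 was nearly level (13.3 and 13.2 CPM). MRC1 (10.7 and 66.7 CPM), C1QA (6.15 and 36.6 CPM), LYVE1 (4.71 and 15.3 CPM) and FOLR2 (1.92 and 6.37 CPM) had lower medians in the 6, as had SIGLEC1. The 5 neutrophil markers found summed to a median of 236 CPM in the 6, 5.90 CPM in the 33 and 659 CPM in blood, with CSF3R and MMP8 at a median of 0 in all of them. The 6 libraries held 74767 to 2241336 reads, and 4 of them were under 1000000. The part of these cells and of depth in the levels was not tested.

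The 2 biopsy devices were compared over 29 micro-EMB and 10 conventional EMB libraries with pig and timepoint as covariates. None of the 60 genes tested was called by edgeR (0.0088% of all 11358 genes were called, that is 1 gene), and 1 had an unadjusted p under 0.05. DESeq2 also called none of the 62, and 115 of all genes. Log2 fold changes of micro-EMB over conventional EMB ran from -2.13 to 1.25 with a median SE of 0.71, and 55 of 60 lay within 1. Even the largest of these changes, -2.13, was not called, so smaller differences could be missed at this depth and number of samples. The lack of calls does not show equal levels.

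PTGER2 had the lowest unadjusted p. It was at 0 to 12.5 CPM (median 1.18) in micro-EMB and 0 to 30.2 CPM (median 5.38) in conventional EMB, and its log2 fold change was -2.13 (SE 0.97, edgeR adjusted p = 0.684). Without the libraries on the blood branch it was -1.16 (SE 1.09). CCL2 ran from 0 to 136 CPM (median 14.3) in micro-EMB and 0 to 144 CPM (median 68.7) in conventional EMB, with a log2 fold change of -1.11 (SE 0.73, edgeR adjusted p = 0.915). ABCA1 had medians of 96.5 CPM in micro-EMB and 54.2 CPM in conventional EMB (log2 0.92, SE 0.47, edgeR adjusted p = 0.787). CD93 had a log2 fold change of -0.71 (SE 0.42) with all libraries and 0.35 (SE 0.38) without those on the blood branch. The groups of all 4 genes overlapped.

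**Figure D5:**
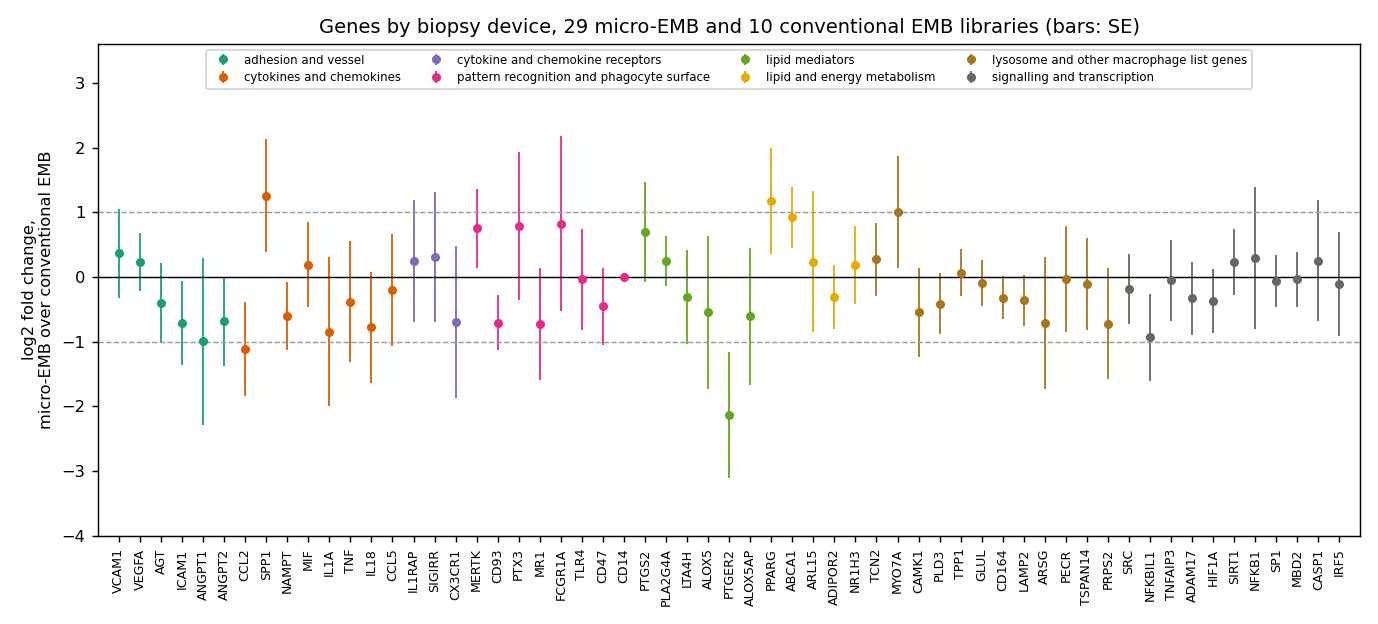
Log2 fold change of micro-EMB (29 libraries) over conventional EMB (10 libraries) for 59 of the genes tested, coloured by role, with bars of 1 SE, dashed lines at 1 and -1, and no bar for CD14, whose SE could not be estimated. No gene was called, and PTGER2 (-2.13) and SPP1 (1.25) were the extremes.

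Within the baseline samples of pigs 4491 and 4494 (6 libraries of each device), the median was higher in conventional EMB for 39 of the 62 genes (62.9%) and in micro-EMB for 23, where 42.3% of 16012 genes were higher in conventional EMB, 2116 being equal. At follow-up (6 and 4 libraries) the shares were 59.7% and 53.2%. These splits were not tested. Over all heart libraries the median blood index was 1.61% in micro-EMB and 4.14% in conventional EMB, which came from pigs 4491 and 4494 only. In the baseline samples of these pigs the index ran from 1.32 to 24.7% in micro-EMB and from 0.761 to 30.1% in conventional EMB. With the index as a covariate again no gene was called. With the index taken per device, blood accounted for a median of 1.91% of a gene's level in micro-EMB and 4.13% in conventional EMB, with PTGER2 highest in both (33.1% and 33.6%). Without the libraries on the blood branch the medians were 1.10% and 1.51%. Set against blood, 18 genes were higher in heart with micro-EMB alone and 21 with conventional EMB alone. Over all genes the counts were 2322 of 10956 and 2616 of 10800.

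Follow-up and baseline micro-EMB were compared in the 4 pigs with both. None of the 49 genes tested was called by edgeR (0% of all 9832 genes were called, with 476 at an unadjusted p under 0.05), 1 had an unadjusted p under 0.05, and DESeq2 called none of the 62 and 21 of all genes. ICAM1 had medians of 5.28 CPM in the 14 baseline libraries and 16.0 CPM in the 12 follow-up libraries, with ranges of 0 to 37.8 and 0.754 to 47.7 CPM that overlapped (log2 1.54, SE 0.61, edgeR adjusted p = 0.997). ADAM17, the sheddase of TNF, TNFAIP3 and MBD2 came next, with log2 fold changes of 0.93 (SE 0.49), 1.21 (SE 0.66) and 0.66 (SE 0.37). Of the 49 genes, 44 lay within a log2 fold change of 1.

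Differences between pigs and between devices in these contrasts were also tested. The heart over blood difference was compared between pigs 4491 and 4494, and none of the 60 genes had an adjusted or unadjusted p under 0.05 (3.40% of all genes had an unadjusted p under 0.05). The change from baseline to follow-up was compared between devices in these pigs: none of 55 genes passed adjustment and 5 (9.09%) had an unadjusted p under 0.05 (MYO7A, LTA4H, MERTK, CD47, ARSG), as had 5.07% of all 9848 genes. MYO7A had the largest of these differences (log2 -5.41, SE 1.19, edgeR adjusted p = 0.586). In conventional EMB it was at 2.73 to 10.5 CPM at baseline and 1.67 to 88.6 CPM at follow-up, and in micro-EMB of the same pigs at 11.9 to 118 CPM and 2.95 to 21.1 CPM.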

How the data were processed

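The authors deposited a table of raw read counts per Ensembl gene for 54 libraries (SMARTer stranded total RNA kit). Per the labels and the methods, reads were trimmed with Trim Galore, aligned with STAR to Sscrofa10.2 and counted with featureCounts. The strand setting is not given in the sources used here, so reads of overlapping antisense genes cannot be told apart. Libraries with under 5000 genes at 1 CPM were left out (3). Levels are CPM with TMM scaling over the other 51, not divided by transcript length, so levels of different genes were not compared with each other. The 3 tissues, the device and the timepoint were each fitted on all genes with edgeR 4.0.16 in R 4.3.3 (quasi-likelihood test, filterByExpr, Benjamini-Hochberg), tested on simulated data. Each SE is the log2 fold change divided by the root of F. DESeq2 1.42.0, other scalings, filters and library sets were alternatives.

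The genes, their roles, the pathway and marker lists and the tests were chosen with earlier results of these data known. Of 189 list symbols, 68 had no match in the table. Genes named with values were, in heart against blood, the 8 with the largest called change per direction and the lowest adjusted p of each role; in the other tissue comparisons, the 4 with the largest called change per direction; for device and timepoint, where none was called, the 4 with the lowest unadjusted p; and of each pathway list the 2 with the lowest adjusted p. Other genes were named after their values were seen, to describe each role. No pair of libraries of a group agreed within sampling noise (lowest chi-square per degree of freedom 6.83). RNA isolation batches were not in the labels used here. Values of 1 gene, which stays in the counts, are not reported here.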

Additional observations from a re-analysis of the deposited data

Results flagged for a closer look

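Of 98 groups of 4 or 6 libraries in which a single library could stand apart from its group, 23 (23.5%) had a highest or lowest library farther from its nearest neighbour than Dixon's 95% limit allows, a limit that about 1 in 20 groups of normally distributed values would pass. These levels are skewed and many lie at or near 0, so that rate does not apply to them as it stands. The 23 values came from 7 libraries, and 15 of them from samples 38 and 57, which cluster with blood.

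Conventional EMB baseline sample 38 was the highest of its 6 libraries for ADAM17 (142 CPM, nearest 62.4), ALOX5AP (72.7 CPM, nearest 15.3), CD93 (340 CPM, nearest 57.8) and IL18 (55.7 CPM, nearest 15.3). It was also the highest for SIGIRR (16.4 CPM, nearest 1.91), SRC (194 CPM, nearest 36.1) and TNFAIP3 (399.7 CPM, nearest 55.5). It was the lowest for VCAM1 (0 CPM, nearest 108). Sample 23 of the same group was the highest for SPP1 (62.8 CPM, nearest 26.2) and VEGFA (376 CPM, nearest 217).

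Skeletal muscle sample 57, with 325907 reads, was the highest of its 6 libraries for CASP1 (26.9 CPM, nearest 4.53), CCL2 (80.6 CPM, nearest 30.9) and IL18 (7.33 CPM, nearest 1.20). It was also the highest for MYO7A (53.8 CPM, nearest 10.4), PTX3 (24.4 CPM, nearest 5.18), SPP1 (9.77 CPM, nearest 3.54) and SRC (14.7 CPM, nearest 5.31). Muscle sample 31 was the highest for ALOX5AP (5.85 CPM, nearest 1.80).

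In blood, the highest libraries were sample 27 for MYO7A (2.62 CPM, nearest 0.486), TCN2 (3.49 CPM, nearest 1.21) and VCAM1 (1.31 CPM, nearest 0.243), sample 51 for CCL2 (1.37 CPM, nearest 0) and sample 20 for PPARG (1.21 CPM, nearest 0).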

How the results depend on the processing

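The number of genes higher in heart than in blood (21) stayed between 15 and 25 over 14 alternatives, and 12 of the 21 were called in every alternative (ABCA1, AGT, CCL2, CD93, GLUL, MYO7A, PPARG, PTGS2, SPP1, TCN2, VCAM1, VEGFA). The other counts moved by over 1.5 times under some settings, and where no setting names it, the cause was not tested. Genes higher in blood than in heart (5) numbered 3 with all libraries, with baseline heart samples of 5 pigs, with DESeq2, with its size factors in edgeR and with no filter on low counts, 9 without the libraries that cluster with blood, 2 in pig 4491 alone and 1 in pig 4494 alone. None of the 5 was called in every alternative, and all kept their sign. Over all genes, 974 were higher in blood than in heart, 1549 without the libraries that cluster with blood and 400 in pig 4494 alone.

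Genes higher in heart than in skeletal muscle (5) numbered 1 with all libraries, 13 without the libraries that cluster with blood, 9 without libraries under 1000000 reads, 3 with conventional EMB alone and with 5 pigs, 0 in pig 4491 alone, 8 with libraries summed per pig and with no pig term, and 9 with DESeq2. Leaving out both kinds of library, chosen after seeing the data, gave 11. All genes called in this direction numbered 763. They numbered 189 with all libraries, 1024 without the libraries that cluster with blood and 33 in pig 4491 alone. Genes higher in muscle than in heart (1) numbered 0 with all libraries, conventional EMB alone, 5 pigs, pig 4491 alone and summed libraries, and 2 without the libraries that cluster with blood, with micro-EMB alone and with DESeq2. Genes higher in blood than in muscle (12) numbered 4 with all libraries, 1 in pig 4491 alone and 7 with DESeq2 size factors. Genes higher in muscle than in blood (15) numbered 8 in pig 4494 alone. Over all genes, 1620 were higher in blood than in muscle, 779 with all libraries and 560 in pig 4491 alone. In the other direction they numbered 2752, and 2050 in pig 4494 alone.

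Device and timepoint gave 0 calls among these genes under every alternative run. The device difference turned direction for CD93 without the libraries that cluster with blood (log2 0.35) and for CCL2 at follow-up alone (log2 0.22). Pig was a term in every model, except where a setting names its absence, and the labels give no number that pairs libraries within a pig. Follow-up conventional EMB holds only 4 libraries, of which 2 cluster with blood, and 11 libraries hold under 1000000 reads.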
